A study of Mus musculus with 4 samples.

Results

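Type I interferon response genes are the genes that cells switch on when interferon alpha or beta reaches them. Their levels were followed through the cell classes of mouse pancreatic tumours under 2 antibodies. Members were chosen by symbol, with no measured value in the rule, and 32 of the 34 symbols listed were found among the 32285 genes of the count tables. The other 2 members, Mx1 and Mx2, were not analysed here.

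The study grew Pan02, a mouse pancreatic cancer cell line, under the skin of the right flank of female C57BL/6 mice aged 6 to 7 weeks. Treatment began at a tumour size near 50 mm3 and was repeated 3 times weekly. There were 4 groups: control with IgG, anti-PD-1 with an antibody that binds PD-1, an inhibitory receptor of T cells, anti-LIF with an antibody against the cytokine LIF, and combo with both antibodies. Doses in the protocol are 200 µg of anti-PD-1 (clone RMP1-14, into the abdomen) and 25 mg/kg of IgG or anti-LIF, and the injections of each group are not listed one by one. Each group was 1 single-cell RNA library in which 3 samples had been combined, so animals cannot be told from each other and no difference between groups was tested. All tumours come from 1 grafted line in an immune-competent host, and the 3 comparisons with control share the control library. Removal of debris and dead cells was optional for each sample, and which of 2 sequencing platforms read each library is not given in the sources used here.

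Interferon alpha and beta bind the receptor made of IFNAR1 and IFNAR2, whose kinases JAK1 and TYK2 activate STAT2. With IRF9 it forms part of a complex that binds the interferon-stimulated response element in promoters and raises antiviral genes. Interferon gamma, made mainly by T and NK cells, works through a separate receptor and a different element, and many genes answer to both. In tumours, type I interferon signalling is known in dendritic cells, macrophages, endothelial cells and the cancer cells themselves.

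The response element can be read in the members' own promoters, which are shown here for 7 members that the results below turn on. RefSeq promoters (build GRCm38.p6, from 250 bases before to 50 bases after each start) were on hand for 26 of the 32 members, and 4 members had more than 1 start. The element was searched as the letters GAAA, any 2 letters and GAAA on both strands, overlapping matches included. It was found in 15 of the 26 genes (57.7%) and in 3.99% of all 27025 genes of the table. The letters TTCNNNGAA, the core of the gamma-activated element, were in 7 of 26 members (26.9%) and in 9.55% of all genes. Of a list of 27 interferon gamma targets, 19 had a promoter in the table, 11 of them (57.9%) with the first motif and 8 (42.1%) with the second. Below, the 170 bases before the start are written 5′ to 3′ on the gene's strand, with response element matches in capitals.
Ifit1, chr19:34640719-34640888, plus strand: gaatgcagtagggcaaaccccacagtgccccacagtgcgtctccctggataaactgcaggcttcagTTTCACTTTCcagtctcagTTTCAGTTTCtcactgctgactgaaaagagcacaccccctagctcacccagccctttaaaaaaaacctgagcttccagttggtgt
Ifit3, chr19:34583359-34583528, plus strand: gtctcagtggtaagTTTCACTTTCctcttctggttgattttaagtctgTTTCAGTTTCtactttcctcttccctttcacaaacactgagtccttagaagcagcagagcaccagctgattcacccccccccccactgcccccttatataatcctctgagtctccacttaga
Isg15, chr4:156200819-156200988, minus strand: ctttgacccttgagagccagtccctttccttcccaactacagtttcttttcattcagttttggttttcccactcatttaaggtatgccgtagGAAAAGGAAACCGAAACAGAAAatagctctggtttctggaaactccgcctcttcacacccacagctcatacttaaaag
Rsad2, chr12:26456453-26456622, minus strand: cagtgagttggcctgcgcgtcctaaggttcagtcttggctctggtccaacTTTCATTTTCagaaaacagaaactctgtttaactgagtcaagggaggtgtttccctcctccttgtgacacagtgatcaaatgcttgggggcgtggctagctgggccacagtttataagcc
Oas1a, chr5:120907526-120907695, minus strand: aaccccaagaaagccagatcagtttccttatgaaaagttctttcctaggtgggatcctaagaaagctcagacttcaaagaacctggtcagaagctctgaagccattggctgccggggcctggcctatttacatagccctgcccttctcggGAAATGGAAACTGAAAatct
Irf7, chr7:141266425-141266594, minus strand: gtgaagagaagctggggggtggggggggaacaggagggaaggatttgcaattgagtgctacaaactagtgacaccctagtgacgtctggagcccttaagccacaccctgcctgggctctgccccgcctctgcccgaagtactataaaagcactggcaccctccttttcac
Oasl1, chr5:114923070-114923239, plus strand: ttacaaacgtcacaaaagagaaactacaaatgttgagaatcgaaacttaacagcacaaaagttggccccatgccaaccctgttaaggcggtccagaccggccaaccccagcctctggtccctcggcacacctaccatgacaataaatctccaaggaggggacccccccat
Ifit1 and Ifit3 each held 2 separate matches, the nearest beginning 85 and 122 bases before the start. Isg15 held 3 overlapping matches from 78 bases before the start, Oas1a 2 overlapping matches from 20 bases before it, and Rsad2 a single match at 120 bases. Irf7 and Oasl1 had none in the whole window of 300 bases. A match is a run of letters and not a measured binding site.

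Libraries held 14014 to 18640 kept cells with medians of 1674.5 to 2288 UMIs (unique molecular identifiers, 1 per captured RNA molecule) per cell. Between 277 and 392 cell barcodes were shared by each pair of libraries. Cells were placed in classes by fixed marker genes, and 51133 of 63443 (80.6%) could be placed. Xist, made by female host cells, was at 1.31 to 2.75 CPM (counts of the gene scaled to one fixed total for every class and library) in cancer cells and at 99.8 to 155 CPM in fibroblasts. A set of keratin-positive cells carried milk gland genes (Csn3, Wfdc18, Prlr, Ltf) and Xist at 132 to 239 CPM, and was kept apart from the grafted cancer cells under that description. Salivary gland RNA reached 4897 CPM in neutrophils, 3252 in macrophages, 1906 in endothelial cells, 1576 in T cells and 768.5 in fibroblasts of the combo library. Haemoglobin RNA reached 1075 CPM in endothelial cells, 386 in T cells and 237 in neutrophils of the anti-PD-1 library, and the part of either in the values below was not tested. Values below are CPM of all UMIs of a class in a library. Brackets hold 95% intervals that cover counting error only, not differences between animals or captures. Those of CPM and of CPM ratios count UMIs as independent and leave out differences between cells as well.

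The cell classes differed in which member they carried most. Ifitm3, whose protein blocks virus entry at membranes, held 63.8% of all member UMIs in cancer cells, 54.9% in fibroblasts, 53.0% in endothelial cells, 41.5% in macrophages, 28.2% in neutrophils and 24.2% in the keratin cells with milk gland genes. T cells differed, with 19.1% of their member UMIs on Isg20, an exonuclease gene, and 13.2% on Ifitm3. Bst2, which encodes the membrane anchor tetherin, stood next after Ifitm3 in 5 classes, with 7.30% of member UMIs in cancer cells and 7.97% in macrophages. In 62 plasmacytoid dendritic cells, for which Bst2 is a known surface marker that was not used to place them, Bst2 pooled over libraries was at 1494 CPM [1299, 1709], against 62.96 CPM in neutrophils and 358.6 CPM in endothelial cells. All 32 members had UMIs in the cancer cells, macrophages, fibroblasts and keratin cells with milk gland genes of every library. Because Ifitm3 and Bst2 are high at rest in many cells, they were left out when cells were scored.

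Cancer cells of the treated libraries carried less RNA of most type I interferon response genes than those of control. A member was taken as measured in a class when its mean over the 4 libraries was at least 10 CPM, which 21 members reached in cancer cells. The medians of their log2 ratios against control were -0.39 under anti-PD-1, -1.30 under anti-LIF and -1.38 under combo, beside 0.16, 0.20 and 0.17 for all 7766 genes measured. At least 2-fold lower were 3, 14 and 15 of the 21 members, and 1.12%, 3.34% and 3.00% of all genes. None was at least 2-fold higher, beside 2.11%, 5.50% and 2.52% of all genes. Below control in all 3 treated libraries were 19 of the 21. Ddx58 and Ifi35 were the exceptions, and only in libraries with a single antibody.

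Among the RNA sensors in cancer cells, Zbp1, which detects unusual nucleic acid helices, was lowest against control. Its level was 90.6 CPM in control, 36.7 under anti-PD-1, 19.3 under anti-LIF and 17.6 under combo. The log2 ratios were -1.30 [-1.42, -1.19], -2.23 [-2.41, -2.06] and -2.36 [-2.51, -2.22], so both libraries with anti-LIF lay below the anti-PD-1 library as well. Ddx58, the gene of the RNA sensor RIG-I, was at 27.4 CPM in control, 28.4 under anti-PD-1, 17.8 under anti-LIF and 17.3 under combo. Anti-PD-1 and control thus lay within counting error of each other for Ddx58, with a ratio of 0.05 [-0.10, 0.19], while both libraries with anti-LIF were lower. The sensors Ifih1 and Dhx58 were under the level set for measurement, at 3.84 and 5.20 CPM in control.

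The factors of the signalling complex were lower too. Stat2 was at 42.8 CPM in control, 27.3 under anti-PD-1, 16.8 under anti-LIF and 13.5 under combo, with ratios of -0.65 [-0.79, -0.51], -1.34 [-1.54, -1.16] and -1.66 [-1.84, -1.49]. Irf9, its partner, was at 41.5 CPM in control, 32.3 under anti-PD-1, 21.3 under anti-LIF and 19.3 under combo. Irf7, which amplifies interferon production, stayed under the level set, between 6.28 and 14.4 CPM.

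The antiviral effectors Ifit3, Ifit1 and Rsad2 were lower in all 3 treated libraries of cancer cells. Ifit3, whose product works with IFIT1 on foreign RNA, was at 38.2 CPM in control, 17.9 under anti-PD-1, 4.92 under anti-LIF and 7.57 under combo. Its ratios of -1.09 [-1.26, -0.93], -2.95 [-3.32, -2.62] and -2.33 [-2.57, -2.11] made it the lowest measured member under anti-LIF. Ifit1 was at 78.7 CPM in control, 47.5 under anti-PD-1, 18.2 under anti-LIF and 27.8 under combo, with ratios of -0.73 [-0.83, -0.62], -2.11 [-2.30, -1.93] and -1.50 [-1.62, -1.38]. Combo was above anti-LIF for Ifit1, while for Zbp1 these 2 libraries lay within counting error of each other. Rsad2, which encodes viperin, an enzyme that makes a chain-ending nucleotide, was at 24.1 CPM in control, 10.7 under anti-PD-1, 5.06 under anti-LIF and 10.4 under combo. Its ratios were -1.17 [-1.39, -0.97], -2.24 [-2.61, -1.91] and -1.22 [-1.42, -1.02], so anti-LIF was lowest, with anti-PD-1 and combo close to each other. Cmpk2, a nucleotide kinase gene beside Rsad2, was at 16.4 CPM in control, 14.7 under anti-PD-1, 8.89 under anti-LIF and 9.42 under combo. Oasl2, of the oligoadenylate synthetase family that activates RNA decay, was at 99.4 CPM in control, 66.9 under anti-PD-1, 35 under anti-LIF and 35.5 under combo. Eif2ak2, the gene of the translation-blocking kinase PKR, differed less, with ratios of -0.17 [-0.29, -0.05], -0.41 [-0.56, -0.27] and -0.16 [-0.28, -0.05]. Isg20 was at 94.7 CPM in control, 60.8 under anti-PD-1, 46.2 under anti-LIF and 48.1 under combo.

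Isg15, a ubiquitin-like modifier, went from 51.7 CPM in control cancer cells to 39.9 under anti-PD-1, 20.4 under anti-LIF and 15.5 under combo. Herc6, the ligase that attaches it in mice, had ratios of -0.17, -1.0 and -1.24. At the membrane, Bst2 was at 258 CPM in control, 162 under anti-PD-1, 95.4 under anti-LIF and 101 under combo. Ifitm3 was at 1835 CPM in control, 1239 under anti-PD-1, 1477 under anti-LIF and 1499 under combo and was lowest under anti-PD-1. Since Ifitm3 holds most member UMIs, the summed level of the list hides the rest. With Ifitm3 and Bst2 set aside, members summed to 987 CPM in control, 703.6 under anti-PD-1, 406.8 under anti-LIF and 399.3 under combo.

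Of the remaining members measured in cancer cells, Ifi44 was at 34.9 CPM in control, 21.6 under anti-PD-1, 7.46 under anti-LIF and 8.08 under combo. Rtp4, a receptor chaperone gene, had ratios of -0.30, -1.30 and -1.73, and Xaf1, named for binding the cell death inhibitor XIAP, had -0.39, -1.02 and -1.38. Parp14, an ADP-ribosyltransferase gene, was at -0.22, -1.35 and -1.42 and Trim30a at -0.09, -1.21 and -1.58 on the same scale. All 4 were less than 2-fold from control under anti-PD-1 and at least 2-fold lower in both other libraries. Ifi35 stood apart, with ratios of 0.33 [0.16, 0.50], 0.19 [-0.01, 0.39] and -0.51 [-0.71, -0.31]. The 8 members under the level set, beside Ifih1, Dhx58 and Irf7, were Ifit2, Ifit3b, Oas1a, Oas1g, Oas2, Oas3, Oasl1 and Usp18. Of these, Oas1a was higher under anti-PD-1, at 5.54 against 2.3 CPM in control, with a ratio of 1.27 [0.88, 1.66]. Oas2 and Usp18, which strips Isg15 from proteins and dampens the receptor, had ratios of -0.96, -2.39 and -2.02 and -0.46, -1.68 and -1.26.

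Within cancer cells, combo could be set beside each antibody alone. Combo against anti-PD-1 gave a median of -0.91 over the 21 members, beside 0.00 for all genes. Of the members 9 were at least 2-fold lower and none at least 2-fold higher, beside 1.98% and 0.451% of all genes. Combo against anti-LIF gave a median of -0.04, beside -0.02 for all genes. Here 1 member, Rsad2, was at least 2-fold higher and none at least 2-fold lower, beside 0.245% and 1.15% of all genes. The 3 clusters with at least 50 cancer cells in control and in each treated library all had members below control, with medians between -0.72 and -0.24 under anti-PD-1, -1.04 and -0.41 under anti-LIF, and -1.42 and -1.06 under combo. These clusters were filled unevenly: cluster 10 held 1792 control cancer cells but 129 under anti-LIF. Median UMIs per cancer cell were 8699 in control, 5552 under anti-PD-1, 3690 under anti-LIF and 5287 under combo. The part of depth and cluster makeup in the lower levels was not tested further than by these values and by the settings in the closing section.

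**Figure D1:**
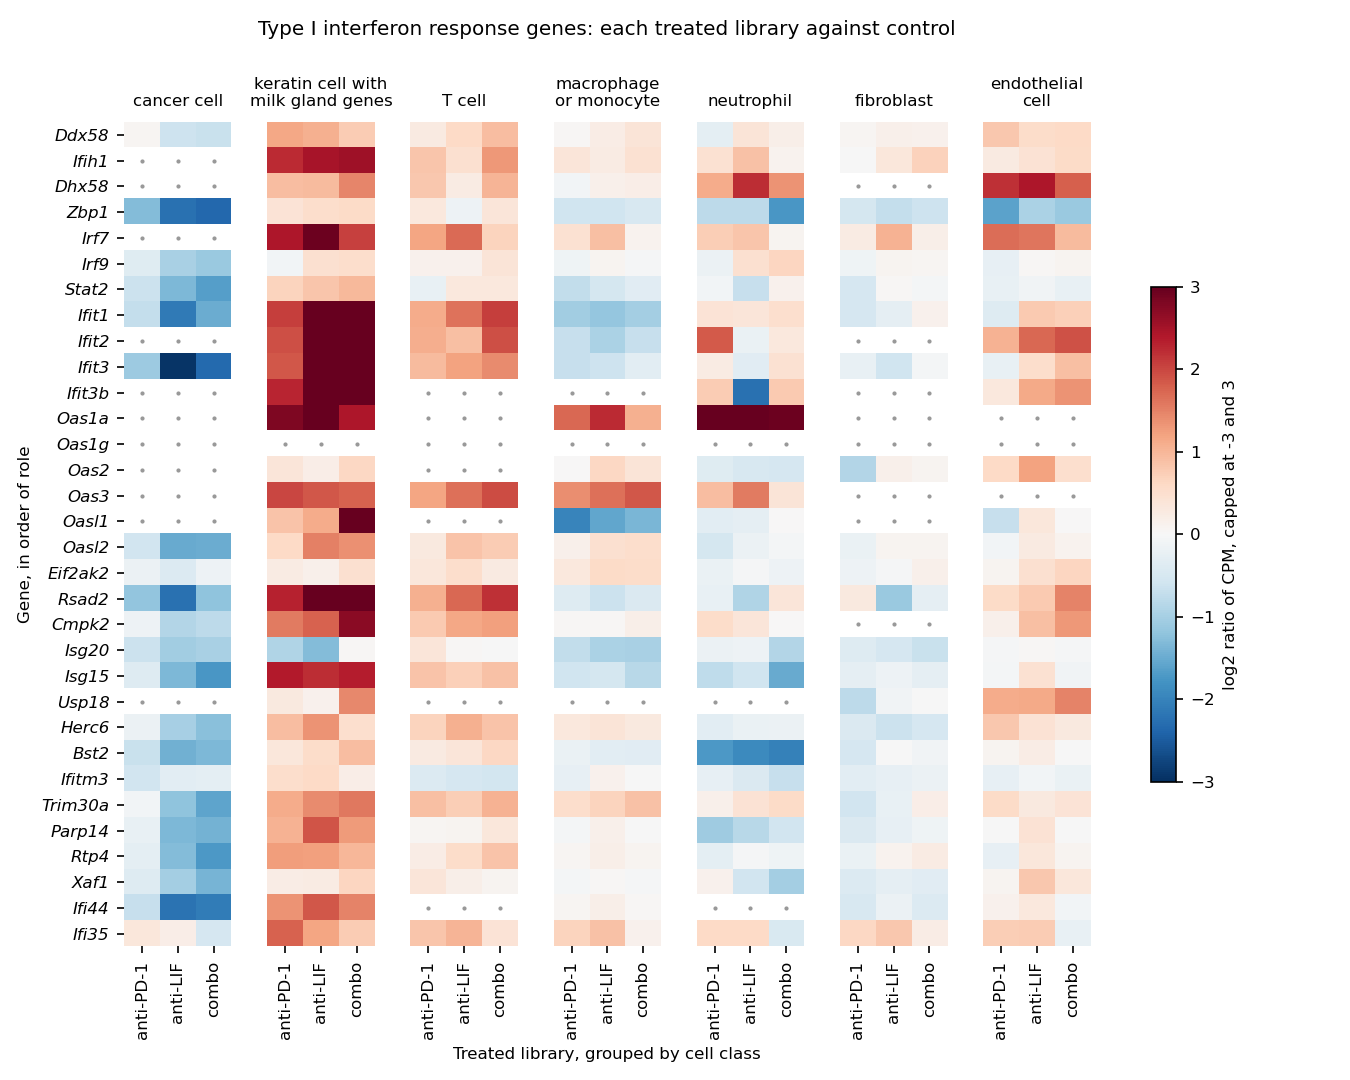
Log2 ratios of CPM of each treated library against control (colour, capped at -3 and 3) for the 32 members in rows and 7 cell classes in column groups of 3 libraries. Dots mark members under a mean of 10 CPM in that class. Blue fills most of the cancer cell columns under anti-LIF and combo, and red fills the keratin cells with milk gland genes and much of the T cell columns.

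The keratin cells with milk gland genes lay on the other side of control from the cancer cells, although both express keratins. Both were in the same libraries, and where in or beside the tumour these host cells lay is not known. They were few: 125 cells in control, 75 under anti-PD-1, 155 under anti-LIF and 169 under combo. All members but Oas1g were measured, and their median log2 ratios were 1.12, 1.34 and 1.43 in the treated libraries, beside 0.11, 0.00 and 0.07 for the 8227 genes measured. At least 2-fold higher were 17, 20 and 18 of 31 members, and 10%, 7.48% and 6.41% of all genes. Lower by 2-fold or more were 0, 1 and 0 members, and 5.59%, 5.46% and 4.73% of all genes. Above control in all 3 treated libraries were 29 of the 31, and Isg20 and Irf9 were the other 2.

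The effectors were far apart here. Ifit1 was at 40.9 CPM in control, 172 under anti-PD-1, 341 under anti-LIF and 543 under combo, with ratios of 2.06 [1.45, 2.72], 3.04 [2.54, 3.63] and 3.71 [3.23, 4.28]. Rsad2 was at 20.4 CPM in control, 103 under anti-PD-1, 171 under anti-LIF and 398 under combo, with ratios of 2.31 [1.46, 3.25], 3.03 [2.32, 3.90] and 4.24 [3.59, 5.08]. Control was lowest and combo highest for both genes, with counting intervals that do not overlap between control and any treated library. These intervals leave out differences between cells, and the share of high cells, given below, was not highest under combo. Ifit3 followed the same order, at 18 CPM in control, 66.6 under anti-PD-1, 177 under anti-LIF and 311 under combo. Ifit3b, a close copy of Ifit3 whose reads may be shared with it, was at 4.81 CPM in control, 25 under anti-PD-1, 64.5 under anti-LIF and 144 under combo on 4 control UMIs. Ifit2 rested on 1 control UMI and had a combo ratio of 5.49 [3.55, 11.39].

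Isg15 was at 38.5 CPM in control, 203 under anti-PD-1, 182 under anti-LIF and 199 under combo in these cells, the same in the 3 treated libraries within counting error. Irf7 was at 16.8 CPM in control, 91.6 under anti-PD-1, 132 under anti-LIF and 72.3 under combo, highest under anti-LIF alone. Ifih1, the gene of the RNA sensor MDA5, was at 13.2 CPM in control, 63.8 under anti-PD-1, 76.5 under anti-LIF and 80.5 under combo, and its 3 treated values again lay together. Oas1a, on 2 control UMIs, had ratios of 2.79 [0.62, 6.32], 3.36 [1.60, 6.78] and 2.41 [0.62, 5.85]. Oasl1, which holds back Irf7 translation, was at 10.8 CPM in control, 19.4 under anti-PD-1, 24 under anti-LIF and 97.9 under combo, so only combo was beyond counting error. Cmpk2 was at 21.6 CPM in control, 63.8 under anti-PD-1, 75 under anti-LIF and 145 under combo. Isg20 was below control in the single-antibody libraries, at 179 CPM in control, 94.3 under anti-PD-1, 72 under anti-LIF and 182 under combo.

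Ifitm3 and Bst2, which hold 24.2% and 7.57% of the member UMIs of these cells, were nearer to control than Ifit1, Ifit3 and Rsad2. Ifitm3 was at 845 CPM in control, 1227 under anti-PD-1, 1283 under anti-LIF and 975 under combo, Bst2 had ratios of 0.35, 0.56 and 0.91, and Oasl2 was at 116 CPM in control, 175 under anti-PD-1, 333 under anti-LIF and 302 under combo. Zbp1, the member with the lowest ratio to control in anti-PD-1 and combo cancer cells, had ratios of 0.41, 0.52 and 0.58 here. The factors Stat2 and Irf9 had 0.68, 0.82 and 0.98 and -0.09, 0.47 and 0.52. Sensors Ddx58 and Dhx58 had 1.17, 1.07 and 0.75 and 0.92, 0.95 and 1.46. For Oas2 and Oas3 they were 0.36, 0.21 and 0.62 and 2.004, 1.85 and 1.77, and for Usp18 0.29, 0.14 and 1.43. The other members, Ifi44, Rtp4, Parp14, Xaf1, Herc6, Trim30a, Eif2ak2 and Ifi35, ranged from 0.16 (Eif2ak2, anti-LIF) to 1.88 (Parp14, anti-LIF). Oas1g, the member not measured, rested on 1 control UMI.

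Most of these cells fell in 1 cluster, in which the medians were 1.14, 1.57 and 1.37. Macrophage markers summed to between 69.7 and 117 CPM in the keratin cells with milk gland genes. Among those without a macrophage marker UMI the medians were 0.92, 1.37 and 1.38. These cells were separated from cancer cells by a rule set after the data were seen. Left among the cancer cells, together with keratin cells rich in salivary gland RNA, they brought the cancer medians under anti-LIF and combo to -0.89 and -0.86.

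**Figure D2:**
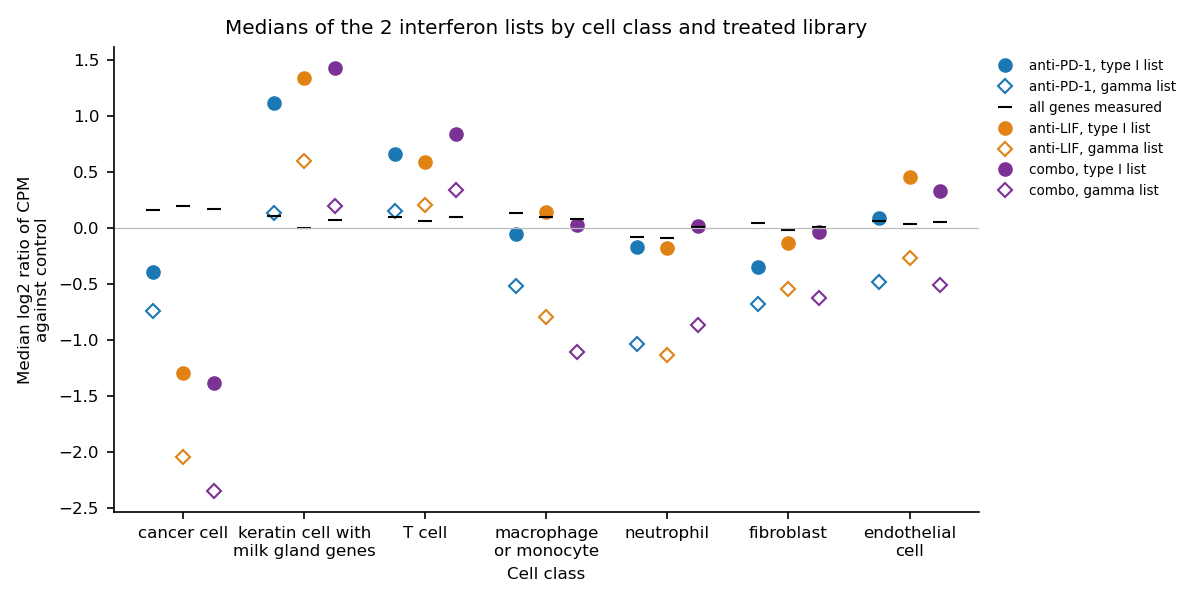
Median log2 ratio of CPM against control (y axis) for the type I list (filled circles), the interferon gamma target list (open diamonds) and all genes measured (dashes) by cell class (x axis) and treated library (colour). The type I medians lie between -1.38 and -0.39 in cancer cells, between 1.12 and 1.43 in the keratin cells with milk gland genes, and between 0.59 and 0.85 in T cells.

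T cells of each treated library carried more RNA of most type I interferon response genes than those of control. The 25 measured members had medians of 0.67, 0.59 and 0.85, beside 0.11, 0.06 and 0.10 for 7783 genes. At least 2-fold higher were 5, 8 and 9 members, and 3.80%, 5.86% and 5.46% of all genes. None was lower by 2-fold, beside 0.758%, 2.26% and 1.77% of all genes. In all 3 treated libraries 21 members were above control and 1, Ifitm3, was below it. Isg20, Stat2 and Zbp1 were on both sides.

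Ifit1 led the effectors of T cells, at 31.8 CPM in control, 68.4 under anti-PD-1, 97.6 under anti-LIF and 133 under combo, with ratios of 1.11 [0.85, 1.36], 1.62 [1.35, 1.88] and 2.07 [1.86, 2.27]. Rsad2 was at 8.09 CPM in control, 16.9 under anti-PD-1, 26.4 under anti-LIF and 36.8 under combo, with ratios of 1.07 [0.53, 1.58], 1.72 [1.17, 2.22] and 2.19 [1.78, 2.59]. Oas3 was at 6.82 CPM in control, 15.4 under anti-PD-1, 21.2 under anti-LIF and 26.4 under combo, with ratios of 1.19 [0.62, 1.72], 1.65 [1.04, 2.21] and 1.96 [1.48, 2.42]. All 3 genes were lowest in control and highest under combo, with anti-PD-1 and anti-LIF between. Ifit3 was at 11.1 CPM in control, 21.3 under anti-PD-1, 25.3 under anti-LIF and 29.4 under combo, Ifit2 at 4.87 CPM in control against 10.3, 8.82 and 18.6 CPM in the treated libraries, and Cmpk2 at 10.9 CPM in control, 18.8 under anti-PD-1, 24.1 under anti-LIF and 25.6 under combo. Isg15 was at 21.1 CPM in control, 37.9 under anti-PD-1, 34.7 under anti-LIF and 38.6 under combo, with the 3 treated values close to each other.

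Irf7 in T cells was highest under a single antibody, at 15.2 CPM in control, 34.6 under anti-PD-1, 49.4 under anti-LIF and 24.1 under combo, with ratios of 1.19 [0.82, 1.55], 1.70 [1.32, 2.07] and 0.68 [0.24, 1.08]. The sensor Ifih1 was at 14.2 CPM in control, 25 under anti-PD-1, 19.4 under anti-LIF and 34.5 under combo, Ddx58 at 35.6 CPM in control, 42.7 under anti-PD-1, 53.5 under anti-LIF and 67.6 under combo and Dhx58 at 7.19 CPM in control, 12.5 under anti-PD-1, 8.23 under anti-LIF and 14.5 under combo. Trim30a, which restrains Toll-like receptor signalling, was at 44.4 CPM in control, 83.5 under anti-PD-1, 74.1 under anti-LIF and 91.8 under combo, with ratios of 0.91, 0.74 and 1.05. Herc6 had ratios of 0.67, 1.07 and 0.85, and Bst2, Rtp4, Oasl2 and Ifi35 had 0.27, 0.36 and 0.63, 0.22, 0.55 and 0.85, 0.28, 0.85 and 0.76 and 0.83, 1.02 and 0.42.

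Isg20, Ifitm3, Irf9 and Zbp1, the 4 members with the most T cell UMIs, lay within 2-fold of control. Isg20 was at 216 CPM in control, 278 under anti-PD-1, 222 under anti-LIF and 212 under combo. Zbp1 was at 66 CPM in control, 81.7 under anti-PD-1, 59.4 under anti-LIF and 85.1 under combo. Stat2 and Irf9 had ratios of -0.23, 0.30 and 0.33 and 0.12, 0.12 and 0.39, and Parp14, Xaf1 and Eif2ak2 had 0.06, 0.07 and 0.34, 0.37, 0.17 and 0.09 and 0.33, 0.52 and 0.26. Ifitm3 was lower in each treated library, at 172 CPM in control, 129.8 under anti-PD-1, 122 under anti-LIF and 117 under combo, with ratios of -0.40 [-0.57, -0.24], -0.49 [-0.71, -0.29] and -0.55 [-0.73, -0.38]. Under the level set were Ifit3b, Oas1a, Oas1g, Oas2, Oasl1, Usp18 and Ifi44, with 0 to 89 UMIs each in control. Among them, Oasl1 had a ratio of -1.73 [-3.52, -0.58] under anti-PD-1 and Ifit3b one of 2.81 [1.92, 3.75] under combo.

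Both subsets of T cells had medians above control. In CD8 T cells, which kill target cells, they were 0.49, 0.81 and 0.82, beside 0.09, 0.06 and 0.10 for all genes. In CD4 T cells, which help or restrain CD8 T cells, they were 0.42, 0.17 and 0.45, beside 0.10, 0.07 and 0.07. Of 23 members measured in CD4 T cells, 7, 8 and 2 lay below control. Intervals of the CD4 median over members began at -0.02 under anti-PD-1, -0.21 under anti-LIF and 0.39 under combo. They describe the spread over genes, which are not independent, and not differences between animals. Single clusters were less even. With at least 50 T cells on both sides, medians ran from -0.02 to 0.54 over 4 clusters under anti-PD-1, from -0.33 to 0.62 over 3 under anti-LIF and from 0.04 to 0.71 over 4 under combo. The cluster with -0.33 held 97 anti-LIF and 149 control T cells. Macrophage markers, a sign of RNA from other cells, summed to 85.8 CPM in control T cells and reached 390.1 CPM in a treated library. Among T cells with no macrophage marker UMI the medians were 0.43, 0.55 and 0.81. With only the members of at least 50 CPM, a limit that drops Rsad2 and Oas3 among others, they were 0.27, 0.12 and 0.39. Over all T cells, combo set against anti-PD-1 gave a median of 0.28, and against anti-LIF 0.27, beside -0.01 and 0.03 for all genes.

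Taken as a class, macrophages and monocytes showed no common direction, although single members were far from control. The 29 measured members had medians of -0.05, 0.15 and 0.03, beside 0.14, 0.10 and 0.09 for 7633 genes. In each comparison 2 members were at least 2-fold higher and 2 at least 2-fold lower. All genes had 3.55%, 5.44% and 4.56% higher and 0.969%, 2.86% and 3.16% lower. Control held 581 of these cells and the treated libraries 4541 to 4822.

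Oasl1 was the member with the lowest ratios in macrophages, at 106 CPM in control, 26.8 under anti-PD-1, 36.1 under anti-LIF and 41.3 under combo, with ratios of -1.99 [-2.23, -1.74], -1.55 [-1.78, -1.32] and -1.36 [-1.57, -1.14]. Ifit1 was at 106 CPM in control, 51.7 under anti-PD-1, 47.5 under anti-LIF and 52.8 under combo, with ratios of -1.04 [-1.26, -0.82], -1.17 [-1.39, -0.94] and -1.02 [-1.22, -0.80]. Ifit2, Ifit3 and Rsad2 lay on the same side, with ratios of -0.68, -0.95 and -0.68, -0.69, -0.62 and -0.32 and -0.39, -0.63 and -0.44. All 5 of these antiviral genes were highest in control. Isg15 was at 73.2 CPM in control, 48.3 under anti-PD-1, 50.8 under anti-LIF and 41.3 under combo, Isg20 at 46.7 CPM in control, 28 under anti-PD-1, 24.3 under anti-LIF and 23.9 under combo, Stat2 at 59.3 CPM in control, 35.9 under anti-PD-1, 41.4 under anti-LIF and 47.2 under combo and Zbp1 at 106 CPM in control, 70.3 under anti-PD-1, 70.1 under anti-LIF and 75.2 under combo.

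Other effectors of macrophages were above control at the same time. Oas3 was at 6.75 CPM in control, 18.2 under anti-PD-1, 22.1 under anti-LIF and 25.6 under combo, with ratios of 1.39 [0.66, 2.33], 1.66 [0.94, 2.60] and 1.87 [1.16, 2.80], and Oas1a at 6.75 CPM in control, 22.9 under anti-PD-1, 33.1 under anti-LIF and 14.5 under combo, both on 14 control UMIs. Trim30a was at 57.3 CPM in control, 83.5 under anti-PD-1, 90.9 under anti-LIF and 105 under combo, with ratios of 0.54 [0.27, 0.83], 0.66 [0.39, 0.95] and 0.87 [0.61, 1.16]. Irf7 was at 32.8 CPM in control, 45.6 under anti-PD-1, 61.7 under anti-LIF and 35.8 under combo, and Oasl2 at 78.5 CPM in control, 86.9 under anti-PD-1, 109.6 under anti-LIF and 113 under combo. Ifitm3 and Bst2, which held 41.5% and 7.97% of member UMIs, were at 1021 CPM in control, 859 under anti-PD-1, 1114 under anti-LIF and 1021 under combo, and at 232 CPM in control, 202 under anti-PD-1, 186 under anti-LIF and 183 under combo. Of 29 members 14 were above and 10 below control in all 3 treated libraries. Irf9, Ifi44, Rtp4, Ifih1, Ddx58, Dhx58, Parp14, Xaf1, Cmpk2, Herc6 and Eif2ak2 ranged from -0.14 (Irf9, anti-PD-1) to 0.58 (Eif2ak2, anti-LIF). Oas2 and Ifi35 had ratios of 0.02, 0.61 and 0.38 and 0.66, 0.88 and 0.14, and Ifit3b, Oas1g and Usp18 were under the level set. Within 3 macrophage clusters the medians ran from -0.74 to 0.01, lower than in the class as a whole. The makeup of the class differed between libraries. Clusters 17, 18 and 26, named as macrophages, held 4, 8 and 8 control cells but 662, 419 and 608 combo cells. The part of makeup in the class medians was not tested.

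Neutrophils showed no common direction either. In the control library they had more Isg15, Rsad2, Oasl2 and Rtp4 than each of the other 6 classes. The 29 measured members had medians of -0.17, -0.18 and 0.02, beside -0.08, -0.08 and 0.01 for 7197 genes. At least 2-fold higher were 3, 3 and 2 members, and 8.46%, 11.7% and 9.73% of all genes, but the combo count takes in Oas1a on 2 UMIs against 0, too few for a fold. At least 2-fold lower were 2, 2 and 4 members, and 7.03%, 17.0% and 9.10% of all genes. Neutrophils were few, with 240 to 740 cells a library.

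Bst2 was lower in each treated library of neutrophils, at 132 CPM in control, 39.6 under anti-PD-1, 33.1 under anti-LIF and 31.8 under combo, with ratios of -1.73 [-2.25, -1.24], -1.92 [-3.25, -0.97] and -2.02 [-2.92, -1.29]. Isg15 was at 272 CPM in control, 162 under anti-PD-1, 178 under anti-LIF and 95.4 under combo, with a combo ratio of -1.50 [-1.998, -1.06]. Zbp1 was at 102 CPM in control, 59.5 under anti-PD-1, 57.9 under anti-LIF and 29.8 under combo, and Ifitm3 at 995 CPM in control, 842 under anti-PD-1, 732 under anti-LIF and 620.1 under combo. Rsad2 was at 310.2 CPM in control, 267 under anti-PD-1, 166 under anti-LIF and 402 under combo, lowest under anti-LIF and highest under combo. Oas3 was at 35 CPM in control, 67.1 under anti-PD-1, 103 under anti-LIF and 45.7 under combo, with an anti-LIF ratio of 1.56 [0.72, 2.40]. Oas1a had 0 UMIs in control, 26 under anti-PD-1 and 6 under anti-LIF, and the intervals of its log2 ratios began at 1.95 and 1.91. With 3 UMIs taken as the most that 0 in control can hide, it was 5.09-fold and 6.38-fold higher. These folds leave out the counting error of the treated UMIs. In combo it had too few UMIs for a fold. Without Oas1a, Irf7 and Ifi35 the neutrophil medians were -0.18, -0.20 and 0.02.

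The other neutrophil members past 2-fold were Ifit2 under anti-PD-1 (1.84 [0.59, 3.67]), Dhx58 in all 3 libraries (1.11, 2.20 and 1.35, on 4 control UMIs), Parp14 under anti-PD-1 (-1.07 [-1.68, -0.46]), Ifit3b under anti-LIF (0 UMIs against 7 in control, too few for a fold) and Xaf1 under combo (-1.01 [-2.18, -0.04]). For Dhx58 the intervals reached below control under anti-PD-1 and combo, beginning at -0.40 and -0.55. Ifit1 was above control in each treated library, at 90.8 CPM in control, 122 under anti-PD-1, 116 under anti-LIF and 129 under combo. Isg20 was at 252 CPM in control, 224 under anti-PD-1, 223 under anti-LIF and 135 under combo, Rtp4 at 208 CPM in control, 170.0 under anti-PD-1, 203 under anti-LIF and 189 under combo and Oasl2 at 287 CPM in control, 200.5 under anti-PD-1, 252 under anti-LIF and 276 under combo. Ifit3, Oas2, Oasl1, Irf7, Irf9, Stat2, Ifih1, Ddx58, Cmpk2, Herc6, Trim30a, Eif2ak2 and Ifi35 ranged from -0.70 (Stat2, anti-LIF) to 0.88 (Ifih1, anti-LIF), and Oas1g, Usp18 and Ifi44 were under the level set. Neutrophils taken by cluster, and not cell by cell, had medians of 0.18 in both anti-PD-1 and anti-LIF. Within the 1 cluster with at least 50 neutrophils on both sides, the medians were 0.54, 0.20 and 0.28. The sign of the median in this class thus depends on how its cells were chosen.

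Fibroblasts, the matrix-making cells of the tumour, had few members past 2-fold, although 20 of 24 lay below control under anti-PD-1. The 24 measured members had medians of -0.35, -0.13 and -0.03, beside 0.04, -0.01 and 0.01 for 7747 genes. At least 2-fold higher were 0, 1 and 0 members, and 2.03%, 2.13% and 1.25% of all genes. At least 2-fold lower were 0, 1 and 0 members, and 1.15%, 1.82% and 1.92% of all genes. The higher member was Irf7, at 13.9 CPM in control, 16.5 under anti-PD-1, 28.8 under anti-LIF and 15.9 under combo, and the lower was Rsad2, at 19.4 CPM in control, 23.7 under anti-PD-1, 9.02 under anti-LIF and 16.3 under combo.

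Ifitm3, with most fibroblast member UMIs, was at 1363 CPM in control, 1101 under anti-PD-1, 1140.0 under anti-LIF and 1204 under combo. Zbp1 was at 83.5 CPM in control, 57.6 under anti-PD-1, 50.5 under anti-LIF and 54.4 under combo, with ratios of -0.54 [-0.75, -0.33], -0.73 [-0.90, -0.55] and -0.62 [-0.78, -0.46]. Ifit1 was at 92.1 CPM in control, 64.8 under anti-PD-1, 76.2 under anti-LIF and 101 under combo, lowest under anti-PD-1 and highest under combo. Ifih1 under combo, with a ratio of 0.69 [0.39, 1.01], and Ifi35, at 11.2 CPM in control, 17.4 under anti-PD-1, 19.7 under anti-LIF and 13 under combo, were on the higher side. Isg15 had ratios of -0.26, -0.16 and -0.26 and Oas2 of -0.88, 0.14 and 0.09. Isg20, Ifit3, Oasl2, Irf9, Stat2, Usp18, Ifi44, Bst2, Rtp4, Ddx58, Parp14, Xaf1, Herc6, Trim30a and Eif2ak2 ranged from -0.79 (Usp18, anti-PD-1) to 0.24 (Rtp4, combo). Under the level set were Ifit2, Ifit3b, Oas1a, Oas1g, Oas3, Oasl1, Dhx58 and Cmpk2.

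Endothelial cells, which line vessels, had the highest Ifitm3 of the classes and members above control in the libraries with anti-LIF. The 29 measured members had medians of 0.09, 0.45 and 0.33, beside 0.07, 0.04 and 0.05 for 8166 genes. At least 2-fold higher were 4, 6 and 6 members, and 6.39%, 6.53% and 5.39% of all genes. At least 2-fold lower were 1, 0 and 1 members, and 3.07%, 3.25% and 2.84% of all genes. Control held 227 endothelial cells and the others 375, 887 and 1058.

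Irf7 was at 19.1 CPM in control, 62.1 under anti-PD-1, 59.7 under anti-LIF and 37.7 under combo, with ratios of 1.67 [0.88, 2.60], 1.61 [0.88, 2.50] and 0.94 [0.22, 1.84]. Rsad2 was at 74 CPM in control, 110.1 under anti-PD-1, 128 under anti-LIF and 208 under combo, with ratios of 0.57 [0.10, 1.05], 0.79 [0.39, 1.22] and 1.48 [1.11, 1.89]. Ifit1 was at 130.1 CPM in control, 99.2 under anti-PD-1, 224 under anti-LIF and 214 under combo, above control in both libraries with anti-LIF and not under anti-PD-1. Ifit2 was at 10.7 CPM in control, 22.9 under anti-PD-1, 37 under anti-LIF and 42.4 under combo on 9 control UMIs, Cmpk2 at 32.2 CPM in control, 36 under anti-PD-1, 61.3 under anti-LIF and 80.1 under combo, and Ifit3 at 39.4 CPM in control, 33.8 under anti-PD-1, 57.1 under anti-LIF and 74.1 under combo. Dhx58 had ratios of 2.19 [0.58, 4.79], 2.43 [0.99, 4.97] and 1.79 [0.35, 4.32] on 3 control UMIs, and Usp18 1.12, 1.15 and 1.48 on 6. The Usp18 intervals began at -0.26, -0.04 and 0.39. The lower member was Zbp1, at 130.1 CPM in control, 42.5 under anti-PD-1, 67.1 under anti-LIF and 60.2 under combo, with ratios of -1.60 [-2.18, -1.07], -0.96 [-1.34, -0.57] and -1.11 [-1.46, -0.75]. Ifitm3 was at 2775 CPM in control, 2325 under anti-PD-1, 2637 under anti-LIF and 2414 under combo, and Bst2 at 340.0 CPM in control, 363 under anti-PD-1, 400.0 under anti-LIF and 337 under combo. Ifit3b and Oas2 had ratios of 0.31, 1.15 and 1.34 and 0.61, 1.21 and 0.51. Isg15, Isg20, Oasl1, Oasl2, Irf9, Stat2, Ifi44, Rtp4, Ifih1, Ddx58, Parp14, Xaf1, Herc6, Trim30a, Eif2ak2 and Ifi35 ranged from -0.70 (Oasl1, anti-PD-1) to 0.82 (Herc6, anti-PD-1), and Oas1a, Oas1g and Oas3 were under the level set.

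Zbp1 was below control in all 3 treated libraries in cancer cells, macrophages, neutrophils, fibroblasts and endothelial cells, with ratios from -2.36 to -0.49. It was above control in all 3 only in the keratin cells with milk gland genes. Ifi35 was higher in both single-antibody libraries than in both control and combo in 6 of 6 classes (the keratin cells with milk gland genes not counted). It was the only 1 of 19 members measured in all 6 classes (5.26%) to show this order in at least 5, beside 4.46% of the 5226 genes measured in all 6, so the members as a list showed it about as often as all genes. Irf7 and Oas1a showed it in 5 of 6 classes, but neither was measured in every class, so that share is no background for them. Control and combo were also the libraries with most UMIs, 111164731 and 94984486 against 67503066 and 57720774, and the part of depth in this order was not tested.

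**Figure D3:**
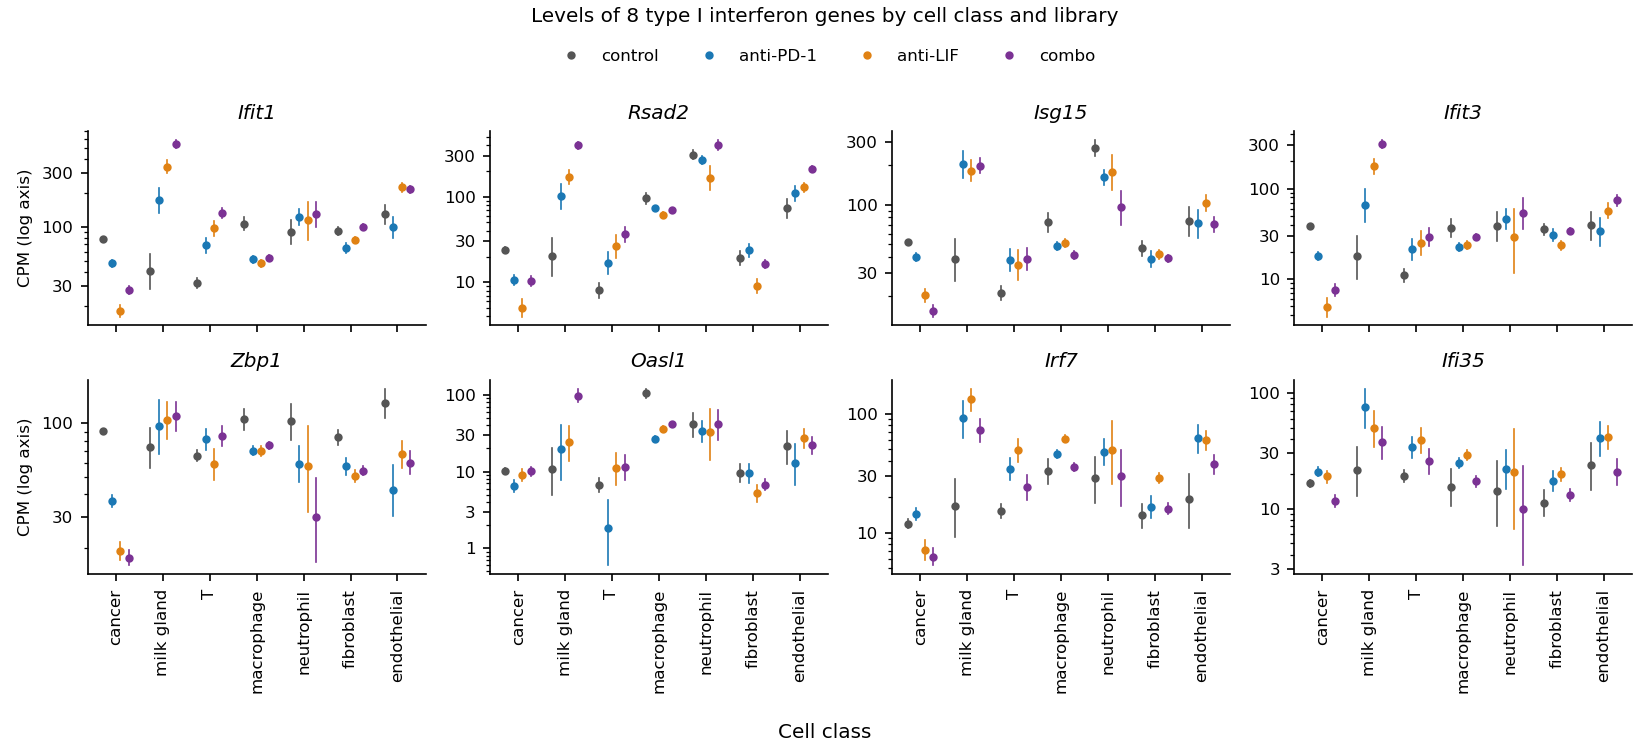
CPM on a log axis (y) of 8 members by cell class (x) and library (colour), with vertical lines for the 95% counting intervals. Ifit1, Rsad2 and Ifit3 are highest in control among cancer cells and lowest in control among T cells and the cells with milk gland genes, while Irf7 and Ifi35 peak in the single-antibody libraries of several classes.

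Members were also counted cell by cell. For this, each cell was thinned to 1000 UMIs, shallower cells were left out, and a cell was called high when at least 4 of 30 members (Ifitm3 and Bst2 not counted) had a UMI. A high cell is a range of a score and not a cell type. In control cancer cells 66 cells stood at exactly 4 members and 197 at exactly 3, just inside and just outside the limit.

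High cancer cells made up 3.41% [2.89, 3.996] of 4338 in control, 2.71% [2.02, 3.55] of 1847 under anti-PD-1, 1.04% [0.583, 1.71] of 1442 under anti-LIF and 1.48% [0.961, 2.18] of 1687 under combo. The log2 ratios against control were -0.32 [-0.83, 0.14], -1.67 [-2.59, -0.95] and -1.18 [-1.88, -0.58]. Before thinning the shares were 61.8%, 45.6%, 27.5% and 34.8%, in the same order of libraries. The share of high cells thus depends on the depth to which cells are thinned. With the milk and salivary gland keratin cells left in the class, the ratios under anti-LIF and combo came to -0.12 and -0.29.

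High T cells were more frequent in each treated library. They made up 1.77% [1.43, 2.16] of 5321 in control, 4.71% [3.49, 6.19] of 1020 under anti-PD-1, 4.80% [3.31, 6.72] of 666 under anti-LIF and 6.38% [5.01, 7.99] of 1097 under combo. The log2 ratios were 1.42 [0.88, 1.93], 1.46 [0.82, 2.04] and 1.85 [1.38, 2.32]. Unthinned shares were 8.46%, 12.2%, 10.5% and 15.6%. Thinning left out 1396 control T cells and 623, 503 and 363 treated ones for low depth.

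CD8 T cells were high in 1.84%, 4.96%, 6.62% and 6.36% of cells, from control to combo. For CD4 T cells the shares were 1.40%, 2.96%, 2.30% and 5.40%, on 4 high cells in each single-antibody library. Among T cells with no macrophage marker UMI the log2 ratios of the shares were 1.67, 1.70 and 1.96.

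The keratin cells with milk gland genes had the largest shares of high cells under treatment. They were 4.90% [1.61, 11.1] of 102 in control, 26.8% [15.8, 40.3] of 56 under anti-PD-1, 30.1% [21.8, 39.4] of 113 under anti-LIF and 20% [13.6, 27.8] of 135 under combo. Log2 ratios were 2.36 [0.92, 4.26], 2.50 [1.26, 4.33] and 1.92 [0.63, 3.76]. The unthinned shares, 53.9%, 66.1%, 72.6% and 58.5%, were closer together. For the thinned shares, the intervals of control and of each treated library do not overlap.

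Endothelial cells were high in 6.59% [3.45, 11.2] of 182 control cells, 9.54% [6.15, 14.0] under anti-PD-1, 13.6% [10.8, 16.6] under anti-LIF and 10.3% [8.21, 12.7] under combo, with log2 ratios of 0.51 [-0.53, 1.67], 0.99 [0.15, 2.05] and 0.59 [-0.24, 1.66]. Their unthinned shares, 48.9%, 39.8%, 45.6% and 40.9%, had another order, so no order is read from them. Macrophages had 8.35%, 6.71%, 8.01% and 7.81% high cells and neutrophils 13.9%, 13.2%, 15.4% and 13.1%, with intervals that overlap throughout. Fibroblasts had 4.70%, 3.26%, 2.67% and 3.88%, and the anti-LIF ratio was -0.82 [-1.43, -0.20]. Conventional dendritic cells had 2 of 128, 3 of 90, 7 of 105 and 3 of 113 high cells. Mast cells, set beside them as a class with few member UMIs, had 0 of 80 high cells under anti-PD-1, which allows up to 3.75%, 1 of 54 under anti-LIF and 0 of 124 under combo, which allows up to 2.42%. Their median depth was 1635 to 2434 UMIs in these libraries, beside 1106 to 1480 in T cells.

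**Figure D4:**
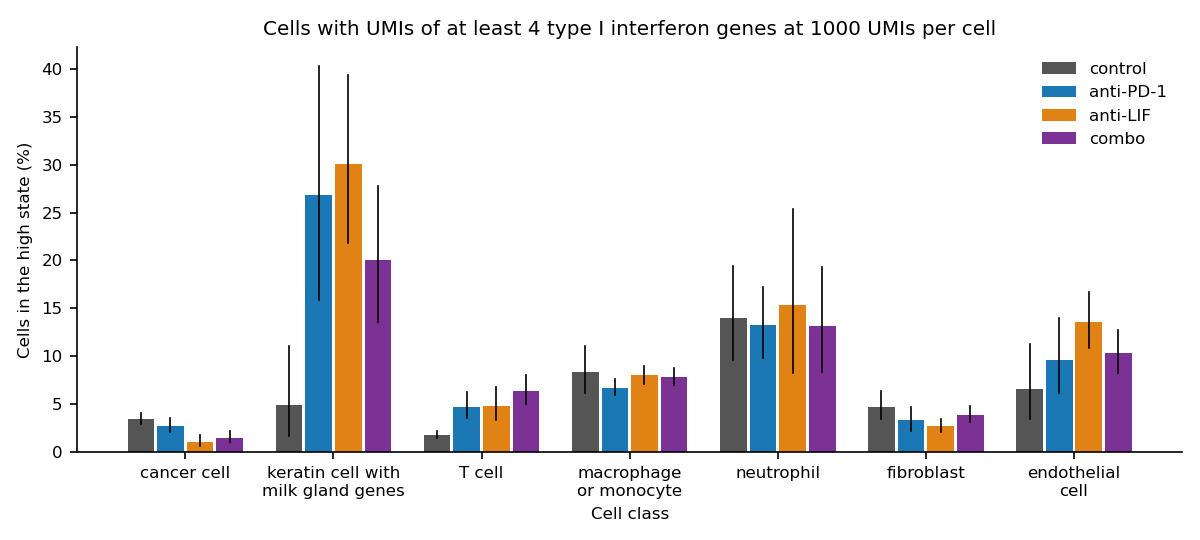
Share of cells with UMIs of at least 4 members at 1000 UMIs per cell (y axis, %) by cell class (x axis) and library (bar colour), with 95% Clopper-Pearson intervals for counting error. Control is the highest bar in cancer cells, at 3.41%, and the lowest in T cells, at 1.77%, and in the keratin cells with milk gland genes, at 4.90%.

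Members came together in the same cells. Of 215 control cancer cells with an Ifit1 UMI, 16.7% also had Ifit3, against 2.52% of the rest. In combo T cells the shares were 23.0% of 61 Ifit1 cells and 0.965% of the rest, and in combo keratin cells with milk gland genes 37.0% of 27 and 1.85%. Genes that were no members also differed between high cells and the rest, pooled over libraries, as a description of cells chosen by their interferon genes. Cxcl10, a chemokine gene that both interferon types raise, was at 2538 CPM in 238 high cancer cells against 404 in the rest and 3499 against 323 in the keratin cells with milk gland genes. Non-members were ranked when high cells held at least 30 UMIs of them and at least 10 high cells had a UMI. This limit looked at high cells only, so a gene that is rare in the rest can rank first for that reason. The highest ratio was that of Ifi206 in cancer cells (log2 ratio 4.45) and Ifit1bl1 in T cells (4.07) and in macrophages (5.62). In the keratin cells with milk gland genes it was that of the chemokine Ccl5 (4.77).

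Markers of other classes were compared in the same cells. Macrophage markers were at 34.7 CPM in high cancer cells and 28.1 in the rest, and at 348 against 251 CPM in T cells. Dendritic cell markers were at 38.1 against 3.35 CPM in cancer cells and at 63.4 against 106 in T cells. Cancer cell markers were at 3131 against 3134 CPM in cancer cells. The part of RNA from other cells in the high state was not tested. Before thinning, median UMIs per cell were 7163 in high cancer cells against 8579 in the rest, and 1552 against 1706 in T cells.

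The ligands were nearly undetected. Over all 63443 cells Ifnb1, the gene of interferon beta, had 69 UMIs, Ifna2 had 3 and Ifna4 had 4, while Ifna1 and Ifna5 had none. Another ligand gene, Ifnz, had 21 UMIs in control cancer cells, 14 under anti-PD-1, 3 under anti-LIF and 6 under combo. These stood at 0.21 to 0.69 CPM. Fibroblasts had at most 5 Ifnz UMIs in a library. Of the 43 Ifnb1 UMIs in control, 33 were in 13 of 581 macrophages (2.24%), the top cell with 8. Treated macrophages had 8 UMIs in 5 of 4598 cells, 4 in 4 of 4541 and 7 in 7 of 4822, shares of 0.109%, 0.0881% and 0.145%. Median depth was 2641 UMIs in control macrophages and 1911, 1953 and 3197 in the treated ones. No T cell among 10989 had an Ifnb1 UMI, which allows up to 0.0273% of T cells with a captured UMI and sets no limit on cells that express the gene. A single combo cell with milk gland genes held 5 Ifnb1 UMIs. Ifng, the gene of interferon gamma, was in T cells at 199 CPM in control, 216 under anti-PD-1, 185 under anti-LIF and 107 under combo.

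The 2 receptor genes of type I interferon lay within 2-fold of control in cancer cells and T cells. Ifnar1 was at 28.3 CPM in control cancer cells and 30.9, 27.8 and 26.7 CPM in the treated libraries, and at 96.7 against 113, 117 and 142 in T cells. Ifnar2 was at 71.1 against 53.3, 47.2 and 51.9 CPM in cancer cells, and at 59.6 against 71.4, 67.0 and 96.2 in T cells. Jak1 in cancer cells had ratios of -0.21, -0.41 and -0.47.

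Irf1, a transcription factor gene that both interferon types raise, was lower in the cancer cells of each treated library, at 600 CPM in control, 358 under anti-PD-1, 159 under anti-LIF and 137 under combo. In T cells Irf1 was at 384, 280, 394 and 337 CPM, in the same order of libraries. Socs1, a feedback inhibitor of the receptors, was at 80.0, 62.7, 44.8 and 51.2 CPM in cancer cells and 68.9, 107, 159 and 156 in T cells.

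Of the 38 other pathway genes, 18 were measured in cancer cells. None was 2-fold higher, and 0, 3 and 3 were 2-fold lower, with Irf1 and Nlrc5, an activator of MHC class I genes, among them in both libraries with anti-LIF. Of 23 measured in T cells, 1, 5 and 5 were 2-fold higher. Ifngr2 was so in all 3 libraries, and Il10rb, Ikbke, Socs1 and Socs3 under anti-LIF and combo. Irf8 was 2-fold lower in both of these. The backgrounds are the shares of all genes given above for each class.

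The interferon gamma target list was set beside the members, because the 2 programmes overlap. In cancer cells its 23 measured genes had medians of -0.74, -2.04 and -2.34, lower than the members in each library. In the keratin cells with milk gland genes they were 0.14, 0.60 and 0.20, and in T cells 0.15, 0.21 and 0.35, nearer to 0 than the members. In macrophages they were -0.52, -0.80 and -1.10, and in neutrophils -1.04, -1.13 and -0.87, where the members' medians stayed between -0.18 and 0.15. In fibroblasts they were -0.68, -0.54 and -0.63, and in endothelial cells -0.48, -0.26 and -0.50. Both lists were thus below control in cancer cells. In endothelial cells their medians lay on opposite sides of control, but the members' 0.09 under anti-PD-1 was near the 0.07 of all genes. There the members' intervals over genes reached below control under anti-PD-1 and combo. That of the gamma list reached above control under anti-LIF. The difference between lists was not tested.

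Genes outside the list with the pattern most like the members were sought over 24 points (6 classes in 4 libraries), with the members' median log2 CPM as the pattern and Pearson's r as the measure. Of 5207 genes compared, Casp4 had the highest r, 0.86, then Pqlc1 at 0.84, and Pde4b, Bcl3 and Lgals9 at 0.82 each. Casp4 encodes the inflammatory caspase that senses bacterial lipid, and Lgals9 a galectin. The points share libraries and classes, and the r values are descriptions.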

How the data were processed

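Raw UMI counts per gene and cell barcode were deposited as 1 matrix for each of the 4 libraries, with lists of other identifiers, the cell barcodes and the gene IDs with symbols, also deposited by the authors. Libraries were 3' single-cell libraries per the labels' protocols, and Seurat 4.0.3 and mm10 stand in the submitters' processing notes. The aligner, the counter and any filtering of barcodes are not given in the sources used here. No sample was left out.

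Barcodes were kept from 200 detected genes upwards and up to a mitochondrial share of 20% (63443 cells). A cell was placed in a class when at least 2 markers of it had UMIs and their number or level led the next class by 2 times, and 51133 were placed. No doublet caller was run, and whether doublets had been removed before deposit is not given in the sources used here. Clustering (scanpy 1.11.5, 2000 variable genes, without members and gamma targets) gave 32 clusters, and cluster and marker class were the same for 97.4% of 48601 cells. Cancer-gated cells with at least 200 CPM of milk gland genes were set apart, and 31 with at least 5% salivary gland UMIs were left out.

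UMIs were summed per class and library, with 0.5 counts added for log2 ratios, in classes of at least 50 cells a library. Intervals at 95% (Poisson, Clopper-Pearson or conditional binomial, scipy 1.17.1) cover counting error only. Those of list medians come from the ranks of the listed genes' ratios. Genes are not independent, so these do not measure differences between animals. The steps were tested on simulated data. Members, lists and comparisons were chosen with earlier results of these data known. Named in full were the members with most UMIs of a class and up to 5 with the highest and lowest ratios each way; likeness took the 5 non-members with the highest Pearson r. The milk gland rule, cells without macrophage UMIs, T cell subsets, clusters and the list without Oas1a, Irf7 and Ifi35 were chosen after seeing the data.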

Additional observations from a re-analysis of the deposited data

Results flagged for a closer look

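The member list lay on opposite sides of control in different cell classes of the same libraries, and this difference was not tested. In cancer cells the medians were -0.39 under anti-PD-1, -1.30 under anti-LIF and -1.38 under combo. In the keratin cells with milk gland genes they were 1.12, 1.34 and 1.43, and in T cells 0.67, 0.59 and 0.85. Each class and library rests on cells of 3 combined samples, so whether every animal shows these directions cannot be told apart.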

How the results depend on the processing

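Over 46 results and 20 other settings, 409 of 445 recomputed values lay within the interval of the reported one without being scored as turned. For list medians that interval ran over genes. Where an interval covered both signs, some of the recomputed values can lie on the other side of control. The cause of the other differences was not tested. Medians of the list: with members of at least 50 CPM, T cells gave 0.27 under anti-PD-1 and 0.12 under anti-LIF, and macrophages turned to -0.12 under anti-LIF. With median-of-ratios size factors cancer cells gave -1.52 under anti-LIF. With each cell weighing the same, fibroblasts gave -0.15 under anti-PD-1 and -0.28 under anti-LIF, and neutrophils turned to 0.027 under anti-PD-1. With the class of the cluster, neutrophils turned to 0.18 under anti-PD-1 and 0.18 under anti-LIF. With milk and salivary gland keratin cells kept among cancer cells, cancer medians were -0.89 under anti-LIF, -0.86 under combo and -0.58 for combo against anti-PD-1. Without cells holding a macrophage marker UMI, combo fibroblasts gave 0.19.

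Log2 ratios of the high share are given in the order anti-PD-1, anti-LIF and combo. Without thinning, and with shallow cells kept, they were 0.37, 0.10 and 0.83 in T cells. In the keratin cells with milk gland genes they were 0.35, 0.43 and 0.12, and endothelial cells turned to -0.33 under anti-LIF and -0.41 under combo. The unthinned shares given earlier leave shallow cells out, so they do not give these ratios. The parts of thinning and of shallow cells in these changes were not told apart. With at least 6 members the log2 ratios were 2.77, 3.91 and 3.32 in endothelial cells and 4.95, 4.50 and 4.45 in the keratin cells with milk gland genes. They were 0.78 in neutrophils of anti-PD-1 and -0.84 in cancer cells of anti-LIF. In T cells thinned to 2000 UMIs with at least 6 members they were 1.95, 2.51 and 3.00, and with at least 3 members 0.87 under anti-PD-1 and 1.12 under combo. With the gland keratin cells kept, cancer cells gave -0.12 under anti-LIF and -0.29 under combo.

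No paired analysis was possible because each group has 1 library. Replicates were not left out in turn, as each group holds 1 library. Depth limits the low members most: Oas1g had 62 UMIs in all cancer cells, 2 in T cells and 1 each in neutrophils and endothelial cells. Shallow cells were left out of the high shares, except in the setting without thinning.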
